A study of Mus musculus with 6 samples.

Results

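A375 human melanoma cells that had received guides against YAE1 were set directly against the same cells with guides against ABCE1. The comparison covers the 12578 of 62492 gene rows whose mean over the 6 libraries of the series was at least 1 FPKM (fragments scaled to the gene model's length and to the library's depth), and 4 of the 6 libraries. The lowest member had a mean of 1.001 FPKM and the highest row left out one of 0.999 FPKM. All groups were A375 cells, an established line, transduced with lentivirus for Cas9 and a guide, selected with puromycin (10 µg/mL) and collected 7 days after selection, per the series' design text. The groups were YAE1 guides, ABCE1 guides and control guides to LacZ or Luciferase, with 2 libraries each. The labels name no clone, do not say whether the numbers 1 and 2 mark guides or cultures, and do not give the share of cells edited. All p-values therefore reflect only how these libraries scatter, a scatter that may be technical. The species is labelled Mus musculus, against a human cell type and a human build (GRCh37). The genotype fields of the second libraries read Abce2 and Yae2, so groups follow the titles.

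ABCE1 is an ATPase with iron-sulfur clusters that splits the ribosome into its subunits after a stop codon has been read, which frees them for another round of translation. YAE1 pairs with LTO1 as an adaptor that brings ABCE1 to the machinery that inserts iron-sulfur clusters into cytosolic proteins. YAE1 therefore lies upstream of ABCE1 in this pathway, and a direct comparison asks where the transcript levels after targeting the adaptor and after targeting its client differ. The title of the series places both in an LTO1 complex and connects it with nonsense-mediated RNA decay, which removes transcripts with early stop codons, and with MHC class I, which presents peptides to T cells.

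The deposited table gives Ensembl identifiers without gene symbols. Of its 62492 identifiers, 0 matched the symbol tables used here, which are for mouse. ABCE1, YAE1, LTO1, melanoma markers and pathway lists were therefore not analysed here, and neither the labels nor the cell type could be checked against them. The 2 genes with the largest difference in each direction, among called genes averaging 5 FPKM or more, are given by identifier, and the others by abundance, by length of the gene model and by cell-cycle list.

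The YAE1 and ABCE1 libraries differed by more than their replicates, mostly by small amounts. The ABCE1 libraries held 15713011 and 17687994 fragments and the YAE1 libraries 16815388 and 17065739, as worked out from the steps between low FPKM values. On the log2(FPKM + 1) scale, the median absolute difference per gene was 0.07 between the 2 ABCE1 libraries and 0.09 between the 2 YAE1 libraries. Across the knockouts it was 0.17 to 0.19 in the 4 possible pairs. A difference of 2-fold or more was seen in 61 genes between the ABCE1 libraries and in 60 between the YAE1 libraries, against 147 to 188 genes in pairs across the knockouts. In those pairs, 122 to 167 were lower and 21 to 33 higher in the YAE1 library, whereas the replicate pairs split more evenly, into 35 lower and 26 higher genes (ABCE1) and 29 and 31 (YAE1).

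Relative to ABCE1 guides, YAE1 guides gave 1928 genes with a higher and 2351 with a lower level (limma at an adjusted p of 0.05). These are 15.3% and 18.7% of the genes tested, 34% in all. The median difference of the called genes was 0.33 for the higher and -0.37 for the lower ones on the log2 scale. Most calls were small: 542 higher and 544 lower genes differed by less than 1.2-fold, and 1237 and 1392 by 1.2-fold to 1.5-fold. Between 1.5-fold and 2-fold lay 139 higher and 320 lower genes. At 2-fold or more there were 10 higher and 95 lower genes, 0.0795% and 0.755% of those tested. The 2 YAE1 libraries lay above both ABCE1 libraries in 4198 genes (33.4%) and below both in 4626 (36.8%), and all 4279 called genes were among these. With 2 libraries a group a call nearly requires such separation, so this adds no support to the calls. The counts of calls were 835 higher and 976 lower without ABCE1 replicate 1, and 919 and 1044 without ABCE1 replicate 2. The balance of all calls turned with the scale: 45.1% were higher on the authors' scale, 56.0% after each library was centred on its median gene and 54.0% after quantile normalization. The excess of lower genes among those of 2-fold or more did not turn, with 11 higher and 85 lower after centring and 14 and 88 after quantile normalization.

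**Figure D1:**
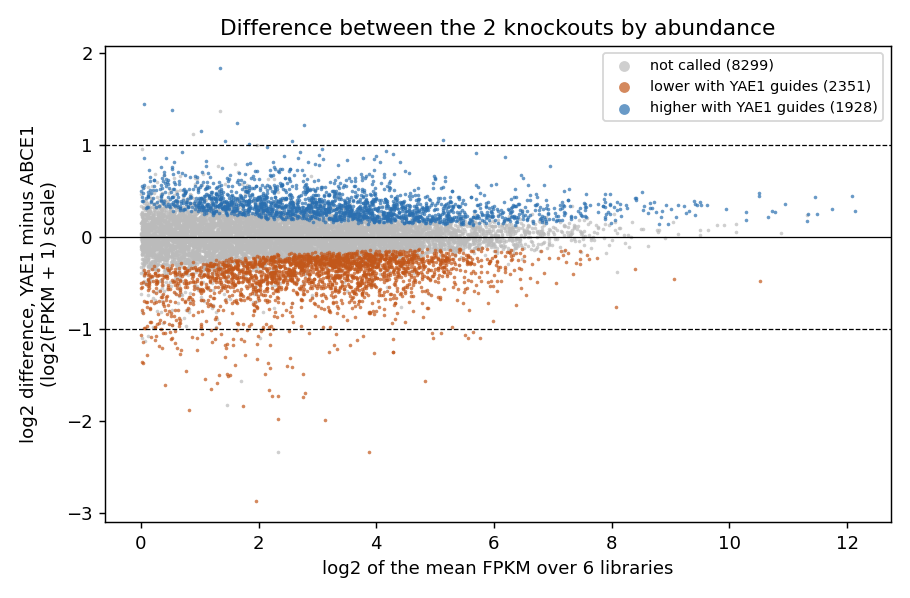
Each point is 1 of 12578 genes, with the log2 of its mean FPKM on the horizontal axis and the log2 difference (YAE1 minus ABCE1, log2(FPKM + 1) scale) on the vertical axis. Blue marks the 1928 genes called higher with YAE1 guides, orange the 2351 called lower and grey the rest, and beyond the dashed lines at 2-fold there are 95 called genes below and 10 above.

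The 95 genes at least 2-fold lower with YAE1 guides had their lowest median level in control cells and their highest with ABCE1 guides. The order of the 2 knockouts is fixed by the choice of these genes. In 42 of the 95 (44.2%, against 6.03% of all genes tested) the control mean was under 1 FPKM. These genes reached the required mean of 1 FPKM only through the knockout libraries. The low level in the controls is therefore in part favoured by the filter. The median was 1.32 and 1.18 FPKM in the controls, 6.76 and 6.07 FPKM with ABCE1 guides, and 2.12 and 2.22 FPKM with YAE1 guides. Against the controls, the 95 genes had a median log2 change of 1.75 (quartiles 0.93 and 2.38) with ABCE1 guides, and of 0.56 (quartiles -0.28 and 1.01) with YAE1 guides. Both changes use the same control libraries, and the genes were chosen for the gap between them. Over all genes tested, these medians were 0.10 and 0.10. The lower quartile of the change with YAE1 guides was negative, so some of the 95 genes were lower with YAE1 guides than in the controls. As levels, the lower quartile was 0.951 FPKM with YAE1 guides and 0.382 FPKM in the controls. The differences of the 95 genes ranged from -2.86 to -1.0. Only 31 of them had a mean of at least 5 FPKM and 2 a mean of at least 50 FPKM.

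The 10 genes at least 2-fold higher with YAE1 guides had a median of 0.718 and 1.78 FPKM with ABCE1 guides, 4.77 and 4.08 FPKM with YAE1 guides and 3.07 and 3.88 FPKM in the controls. The median control level lay between those of the knockouts. Against the controls these 10 had a median log2 change of -0.59 (ABCE1 guides) and 0.63 (YAE1 guides). Both changes use the same control libraries, and these 10 were chosen for the gap between them. The opposite signs and the place of the controls are therefore favoured by the choice. The differences ranged from 1.01 to 1.84.

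Genes of both sets had short gene models and few fragments. The length that the values allow had a median of 1064 bases in the 95 lower genes and 805.5 in the 10 higher ones, against 4643.5 bases over all genes tested. This length is the smallest whole number that fits a gene's values, so the true one can be a multiple of it. Models under 300 bases made up 26 of the 95 and 4 of the 10, but 427 of all 12578 genes (3.39%). A mean under 20 fragments per library was found in 30 of the 95 and 5 of the 10, against 6.17% of all genes, and at such depth counting error is large. With these genes left out before the fit, 67 lower and 5 higher genes of 2-fold or more were called, so the excess of lower genes was also present at higher depth. Most of the 95 lower and of the 10 higher genes, which were chosen for size, kept their call whichever of the 6 libraries was left out. Most of all called genes did not. Leaving out a library leaves its group without a replicate.

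**Figure D2:**
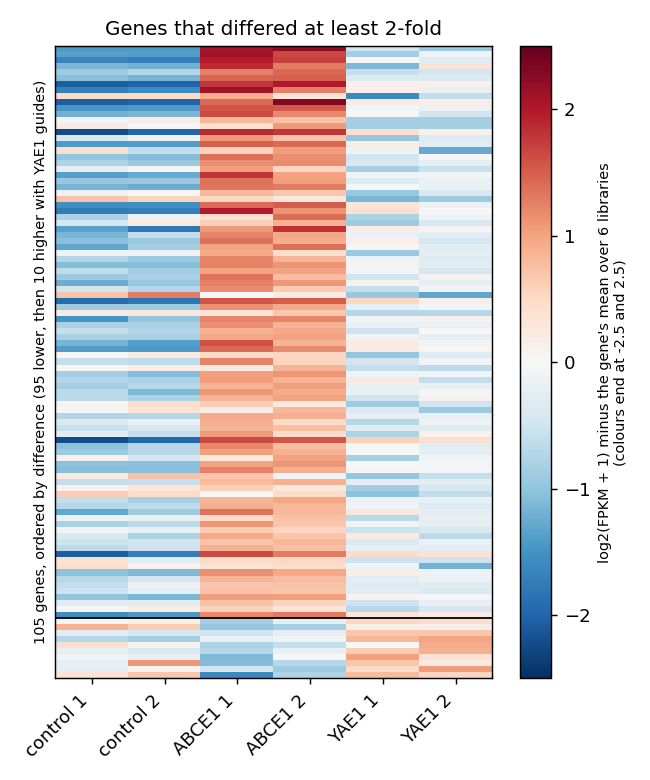
Rows are the 105 genes that differed at least 2-fold, ordered by difference, and columns are the 6 libraries. Colour gives log2(FPKM + 1) minus the gene's mean over the 6 libraries, and in most of the 95 rows above the black line the ABCE1 libraries are the highest (red), with the controls or the YAE1 libraries the lowest (blue).

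A set of 4 genes was named by size of difference, among genes averaging 5 FPKM or more that were called and whose libraries did not overlap. Of the 7047 genes averaging 5 FPKM or more, 1317 such genes were higher and 1562 lower with YAE1 guides. Over all genes tested, 15.3% were called higher and 18.7% lower. ENSG00000187653 had the largest difference among those lower with YAE1 guides. It stood at 40.3 and 29.7 FPKM with ABCE1 guides, at 4.41 and 8.25 FPKM with YAE1 guides and at 2.82 and 2.73 FPKM in the controls. Both ABCE1 libraries were far above the other 4, and both YAE1 libraries were above both controls. The mean with ABCE1 guides, 35.0 ± 7.48 FPKM (SD, n = 2), was 5.54 times that with YAE1 guides, 6.33 ± 2.72 FPKM (SD, n = 2). The log2 difference was -2.33 ± 0.25 (SE, limma adjusted p = 0.0026). Its values rest on few fragments: 85.5 and 71 with ABCE1 guides, 10 and 19 with YAE1 guides, and 7 and 6.5 in the controls. The allowed length of its model was 135 bases. Fractions such as 6.5 arise because the recovered numbers come in steps of 0.5.

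ENSG00000227234 followed, with 22.7 and 18.8 FPKM with ABCE1 guides, 5.17 and 3.84 FPKM with YAE1 guides and 0.933 and 0.853 FPKM in the controls. The 3 groups did not overlap, and the YAE1 libraries lay between the other two groups. The ABCE1 mean, 20.8 ± 2.78 FPKM (SD, n = 2), was 4.61 times the YAE1 mean, 4.50 ± 0.943 FPKM (SD, n = 2), a log2 difference of -1.99 ± 0.13 (SE, limma adjusted p = 0.0013). Against the controls, ENSG00000227234 rose by 3.52 on the log2 scale with ABCE1 guides (limma adjusted p = 1.2e-05) and by 1.53 with YAE1 guides (limma adjusted p = 0.00024). For ENSG00000187653 these rises were 3.24 (limma adjusted p = 9.9e-05) and 0.90 (limma adjusted p = 0.021). Of all genes tested, 57.9% were called against the controls with ABCE1 guides and 51.8% with YAE1 guides. Both genes were thus higher than in the controls in both knockouts. That the level was higher with ABCE1 than with YAE1 guides is fixed by their choice. ENSG00000227234 averaged 0.893 FPKM in the controls and 4.50 FPKM with YAE1 guides. It therefore reached the mean of 5 FPKM only through the ABCE1 libraries, and its rise with ABCE1 guides is favoured by that filter. The same holds for ENSG00000187653, which averaged 2.78 FPKM in the controls and 6.33 FPKM with YAE1 guides. Without the ABCE1 libraries its mean would have been under 5 FPKM.

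The 2 named genes that were higher with YAE1 guides were on firmer counts. ENSG00000079931 stood at 10.2 and 12.3 FPKM with YAE1 guides (892.5 and 1094.5 fragments), at 3.39 and 5.24 FPKM with ABCE1 guides (278.5 and 484 fragments) and at 5.2 and 4.55 FPKM in the controls. The ABCE1 libraries enclosed the controls, and both YAE1 libraries were above all others. The YAE1 mean, 11.2 ± 1.5 FPKM (SD, n = 2), was 2.6 times the ABCE1 mean of 4.32 ± 1.30 FPKM (SD, n = 2), a log2 difference of 1.22 ± 0.17 (SE, limma adjusted p = 0.0045). Against the controls it rose by 1.05 with YAE1 guides (limma adjusted p = 0.0026). The difference with ABCE1 guides, -0.16, did not pass the test (limma adjusted p = 0.44). The gene's means in the controls (4.88 FPKM) and with ABCE1 guides (4.32 FPKM) were both under 5 FPKM. It therefore reached the mean of 5 FPKM only through the YAE1 libraries, and its rise with YAE1 guides is favoured by that filter.

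ENSG00000138131 stood at 56.2 and 63.1 FPKM with YAE1 guides, at 27.3 and 29.1 FPKM with ABCE1 guides and at 18.7 and 17.0 FPKM in the controls. Here the ABCE1 libraries lay between the other two groups, with no overlap. The YAE1 mean, 59.6 ± 4.87 FPKM (SD, n = 2), was 2.12 times the ABCE1 mean of 28.2 ± 1.26 FPKM (SD, n = 2), a log2 difference of 1.05 ± 0.07 (SE, limma adjusted p = 0.0015). It rose against the controls by 1.69 with YAE1 guides (limma adjusted p = 3.8e-05) and by 0.63 with ABCE1 guides (limma adjusted p = 0.00051). The order of the knockouts is opposite in ENSG00000138131 and ENSG00000227234, which is fixed by their choice, and both genes rose in both knockouts.

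**Figure D3:**
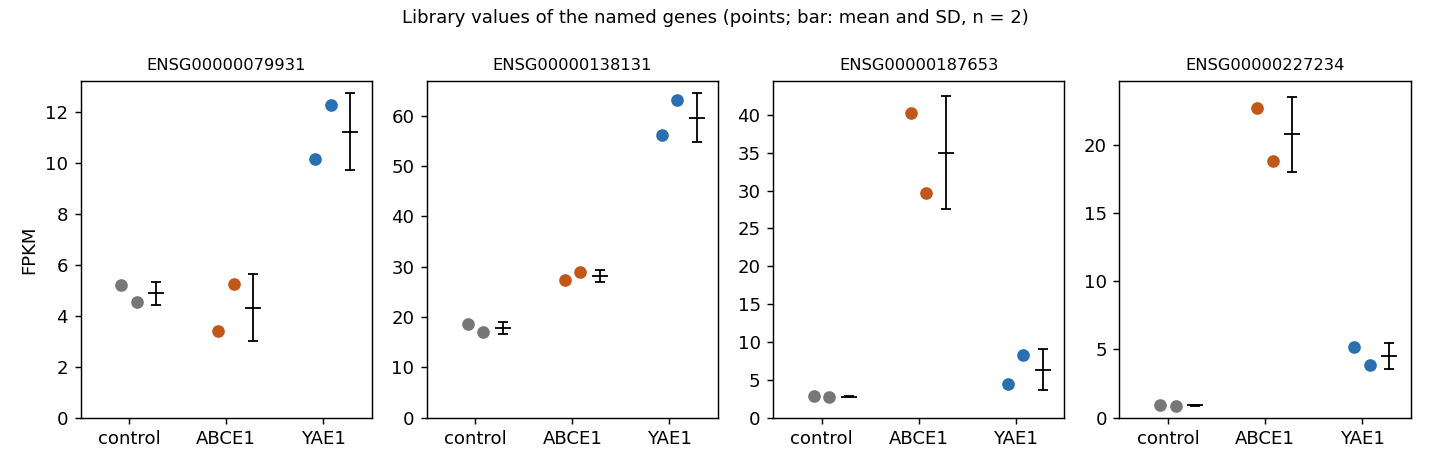
FPKM (vertical axis, from 0, a scale for each gene) of the 4 named genes in the 2 libraries of each group (points), with the mean and SD (n = 2) beside them in black. The YAE1 libraries are the highest for ENSG00000079931 and ENSG00000138131, and the ABCE1 libraries for ENSG00000187653 and ENSG00000227234.

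Abundant genes were more often higher with YAE1 than with ABCE1 guides. In the class of 50 FPKM and more, 261 of 777 genes (33.6%) were higher and 97 (12.5%) lower, against 15.3% and 18.7% of all genes tested. In each class below this more genes were lower than higher. At 10 to 50 FPKM 17.9% were higher and 24.5% lower, and at 5 to 10 FPKM 15.2% and 21.6%. The shares were 13.8% and 17.1% at 2 to 5 FPKM, and 7.03% and 10.2% at 1 to 2 FPKM, where a gene had a median of 80.6 fragments. The excess of higher genes at 50 FPKM and more was also present after centring (299 higher and 75 lower) and quantile normalization (215 and 144). The excess of lower genes between 2 and 50 FPKM was not: at 10 to 50 FPKM there were 827 higher and 742 lower genes after centring, and 874 and 737 with quantiles matched.

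The 20 most abundant rows of each library took 18.7% and 18.3% of the summed FPKM in the YAE1 libraries. In the ABCE1 libraries they took 16.3% and 16.1%, close to the 16.4% of both controls. Of the 20 genes with the highest mean over all libraries (1101 to 4488 FPKM), 15 were called higher with YAE1 guides and 1 lower, with differences from -0.48 to 0.47 and a median of 0.26 on the log2 scale. The summed FPKM was 266479 and 259523 in the YAE1 libraries and 251809 and 251572 in the ABCE1 libraries. The groups did not overlap in either quantity. Neither was tested, since the smallest p of an exact two-sided permutation test on 4 libraries is 0.333.

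On the authors' scale, genes with long models were more often lower with YAE1 guides. Of the 1360 genes with an allowed length of at least 10000 bases, 131 (9.63%) were higher and 355 (26.1%) lower. At 6000 to 10000 bases 13.6% were higher and 22.0% lower, and at 4000 to 6000 bases 15.7% and 18.8%. At 2000 to 4000 bases the order turned, with 20.1% higher and 15.9% lower, and genes under 2000 bases gave 14.4% and 13.5%. Short genes had fewer fragments to test (a median of 38.8 under 2000 bases and 1189 at 10000 bases or more). The excess of lower genes at 10000 bases or more was also present after centring (166 higher and 288 lower) and quantile normalization (165 and 288). At 6000 to 10000 bases it was not (554 higher and 529 lower after centring, 545 and 541 after quantile normalization). At 4000 to 6000 bases it was reversed (545 higher and 422 lower after centring, 552 and 445 after quantile normalization). Length and abundance were both related to the calls. At 50 FPKM and more, 176 of 490 genes under 4000 bases were higher and 45 lower, and 85 of 287 longer ones were higher and 52 lower. At 10 to 50 FPKM, 326 of 1487 shorter genes were higher and 258 lower, but 350 of 2291 longer ones were higher and 669 lower.

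**Figure D4:**
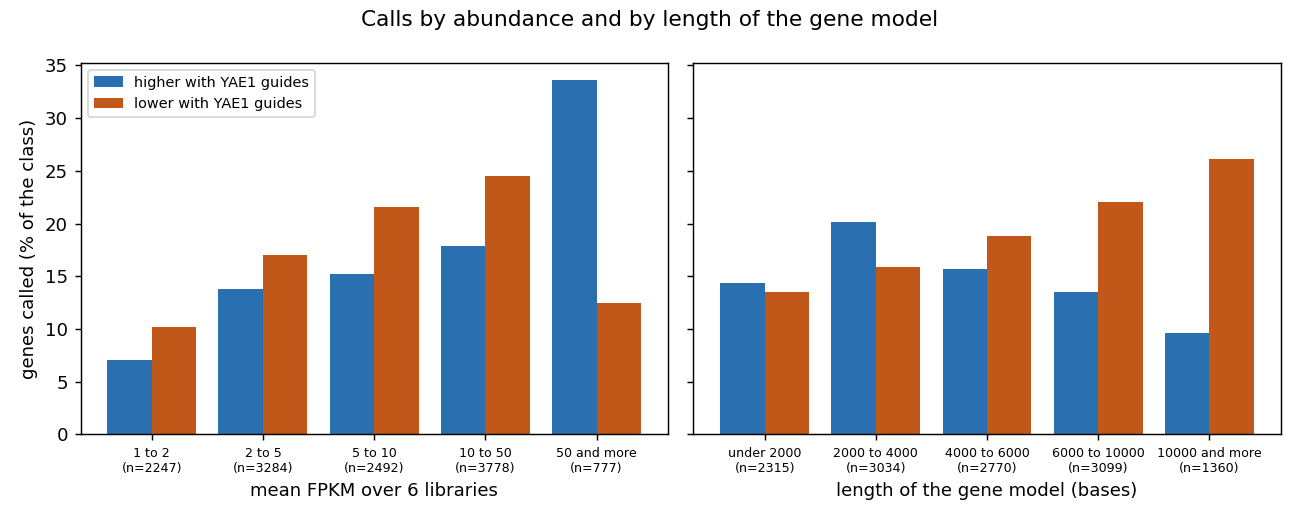
Bars give the percentage of genes called higher (blue) or lower (orange) with YAE1 guides, by mean FPKM (left) and by allowed length of the gene model in bases (right). Higher genes outnumber lower ones at 50 FPKM and more (33.6% and 12.5%), and lower genes outnumber higher ones at 10000 bases and more (26.1% and 9.63%).

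Calls among cell-cycle genes were compared with those over all genes tested, without a test of the sets. The lists hold identifiers taken from human marker pairs of the Bioconductor package scran, for G1, for S (DNA replication) and for G2M (entry into and passage through mitosis). Of the 152 measured genes of the G2M list, 21 (13.8%) were higher and 35 (23.0%) lower with YAE1 guides, with 1 gene of 2-fold or more. Of the 198 of the G1 list, 15.2% were higher and 25.8% lower, and of the 177 of the S list 15.8% and 13.6%. Over all genes tested these shares were 15.3% and 18.7%. The median gene averaged 15.4 FPKM in the G1 list, 10.6 FPKM in the G2M list and 9.62 FPKM in the S list. Among all genes of 10 to 50 FPKM the shares were 17.9% and 24.5%, near those of the G1 and G2M lists. At 5 to 10 FPKM they were 15.2% and 21.6%. Neither the G1 nor the S list held a call of 2-fold or more. After centring, the G2M list had 27 higher and 31 lower genes, the S list 37 and 21, and the G1 list 42 and 36. The middle 80% of the differences lay between -0.42 and 0.22 in the G2M list, -0.31 and 0.26 for G1, and -0.31 and 0.23 for S.

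YAE1 libraries gave these lists a smaller share of their summed FPKM than ABCE1 libraries, by small amounts, but for G1 and S this did not hold for the sums themselves. The G2M list took 0.884% and 0.930% with YAE1 guides, 1.00% and 0.993% with ABCE1 guides and 1.34% and 1.36% in the controls. The G1 list took 1.84% and 1.83%, 1.94% and 1.97%, and 2.27% and 2.24% in the same order. The S list took 1.41% and 1.42%, 1.45% and 1.45%, and 1.72% and 1.69%. In each list the shares of the 3 groups did not overlap, and both knockouts were nearer to each other than to the controls. The shares move with the summed FPKM of the library, which was higher with YAE1 guides. As sums, the S list was higher in the YAE1 libraries (3758 and 3696 FPKM) than in the ABCE1 libraries (3645 and 3650 FPKM). For the G1 list the sums overlapped, at 4911 and 4757 FPKM with YAE1 guides and 4894 and 4957 FPKM with ABCE1 guides. The G2M list was lower in both measures, with sums of 2355 and 2415 FPKM against 2520 and 2498 FPKM. In bulk RNA, fewer cells in a phase and less of a transcript per cell cannot be told apart.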

How the data were processed

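Strand-specific RNA sequencing (150 bp pairs, 1 µg of RNA) was analysed for 6 libraries. The authors deposited 1 table of FPKM values per gene and library. The submitters' processing notes name GRCh37, while the aligner, counter and annotation are not given in these sources.

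The 12578 genes averaging 1 FPKM or more went, as log2(FPKM + 1), into limma (version 3.58.1, R version 4.3.3) as 1 model of group means over the 6 libraries, with trended eBayes. P-values were adjusted by Benjamini-Hochberg over these genes, with a threshold of 0.05. Residual degrees of freedom were 3, and moderation added 3.62. Fold changes on this scale understate those of low genes.

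Fragment numbers were worked out from the steps between FPKM values: 38268 of the 38269 genes above 0 gave multiples of 0.5 fragments in every library (tolerance 2e-05 steps). They summed to at least 99.4% of the totals (15713011 to 18399717 per library). Members had a median of 534 fragments, which gives a counting error of 4.33%. At the 5th percentile there were 14 fragments and the error was 26.7%. These errors cover counting only.

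Replicates differed by more than counting noise, with a mean chi-square per gene of 2.87 (ABCE1) and 5.73 (YAE1), where counting noise alone gives 1. Gene lists by symbol (42) could not be matched and were not used. Cell-cycle lists hold genes that won at least 90% of their marker pairs, with 10 pairs or more, in 1 phase only (scran 1.30.0). Named genes were the 2 with the largest difference in each direction among called genes averaging 5 FPKM or more whose libraries did not overlap. The rule had allowed for more genes and required symbols, and was narrowed because no symbols matched. Members and lists were chosen with earlier results of these data known. The fit was also run on simulated libraries with a common spread for all genes. The outcome is not reported here, so it is no support for the calls.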

Additional observations from a re-analysis of the deposited data

Results flagged for a closer look

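The 4 named genes were chosen as called in the direct test of the 2 knockouts, with libraries that did not overlap, so that each passed it is fixed by the choice and is no further result. The log2 difference, YAE1 minus ABCE1, was -2.33 for ENSG00000187653 (limma adjusted p = 0.0026) and -1.99 for ENSG00000227234 (limma adjusted p = 0.0013). It was 1.22 for ENSG00000079931 (limma adjusted p = 0.0045) and 1.05 for ENSG00000138131 (limma adjusted p = 0.0015).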

How the results depend on the processing

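The calls of the 4 named genes held their direction and stayed past the threshold in all 15 alternatives, with a largest limma adjusted p of 0.039. These 4 genes were chosen for size and for passing the test in these same libraries, so their holding is favoured by the choice. The counts of 1928 higher and 2351 lower genes were 907 and 1184 with no filter on low values. Leaving out 1 library gave 835 to 1641 higher and 976 to 2080 lower genes, and 9 to 12 higher and 76 to 122 lower genes of 2-fold or more. The 10 higher and 95 lower genes of 2-fold or more became 39 and 174 with a pseudocount of 0.1, 47 and 189 with voom on recovered fragments, and 3 and 31 at a mean of at least 5 FPKM. With a mean of at least 20 fragments, chosen after seeing the data, 5 higher genes were called. Of the 95, 63 were called lower in every alternative that tested them, and 6 of the 10 higher. Among all called genes, higher or lower, most did not keep their call in every alternative. With the replicate number as a block, 1675 genes were higher and 2103 lower. Same-numbered libraries did not deviate together over all genes (r = -0.05 to -0.01). This measure could miss a pairing that touches few genes. Centring shifted the median difference of all genes by 0.04 and turned the medians of the 3 cell-cycle lists to between 0.01 and 0.03. The median of the G2M list was -0.036 in the main fit and 0.003 after quantile normalization. It was 0.005 without YAE1 replicate 1 and -0.051 without YAE1 replicate 2. Depth limits the scarcest genes, where the counting error was 26.7% at the 5th percentile of fragments.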

Other observations

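The rows below a mean of 1 FPKM, which entered no comparison, summed to 4896 and 4779 FPKM in the ABCE1 libraries, 4259 and 4241 FPKM in the YAE1 libraries and 3759 and 3716 FPKM in the controls. The 3 groups did not overlap, and the YAE1 libraries lay between the other two. Among the 12578 genes tested, 0 were at 0 in both ABCE1 libraries and 1 was at 0 in both YAE1 libraries.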
